A study of Arabidopsis thaliana with 2 samples.

Results

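The 9 genes described here, *FT*, *TSF*, *CO*, *FKF1*, *TEM1*, *TEM2*, *FD*, *LFY* and *TFL1*, make up the long-day route to flowering in *Arabidopsis*, from the light input in the leaf to the identity of the meristem. They were taken by locus identifier from a list of pathway genes drawn up with earlier results of these data known, and each has 1 gene model among the 33602 genes of the table. The transgenic plants were the *35S:SsCBF1-11* line, a single homozygous line in the Col-0 background in which the constitutive CaMV 35S promoter drives *SsCBF1*, a CBF transcription factor of *Solanum lycopersicoides*, and they were set against untransformed Col-0. Both genotypes were 4 weeks old, unstressed and grown at 22 °C under 16 h of light and 8 h of darkness, and the aerial parts of 20 plants of each were pooled into 1 RNA-seq library. The paper reports that this line flowered later than Col-0, so equal age need not mean an equal stage of development. With 1 library per genotype no difference has a replicate check, and the intervals and tests that follow cover counting error between 2 libraries, not variation between plants or pools.

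In long days the clock places the synthesis of *FKF1* and *CO* late in the day, when light stabilises the CO protein in the companion cells of the phloem. CO then switches on *FT*, whose protein moves to the shoot tip, binds FD and activates genes of floral identity, beside which *LFY* acts. *TEM1* and *TEM2* encode repressors that hold *FT* down in young leaves, and *TFL1* keeps the centre of the inflorescence from becoming a flower.

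The libraries hold 6669454 reads assigned to genes in *35S:SsCBF1-11* and 9120358 in Col-0, and a gene was compared with the share of 42.2% that the transgenic library has of all reads. A gene was called when its exact binomial test had a Benjamini-Hochberg adjusted p under 0.001 over the 22319 genes with reads and its ratio was above 2 with 0.5 reads added to each count. By this rule 0 of the 9 genes were called in either direction, where 0.533% of all tested genes were called higher and 0.838% lower. At an unadjusted p under 0.05 there was 1 of the 8 members with reads, *TEM2*, where 21.2% of all tested genes were under it. *TEM1* had 247 reads and *TEM2* 368 over both libraries, and the other members at most 27. No gene with fewer than 18 reads in both libraries together could have been called lower, whatever its split, and none with fewer than 12 could have been called higher. Of the 9, *TSF*, *CO*, *LFY*, *TFL1* and *FKF1* were under both numbers.

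**Figure D1:**
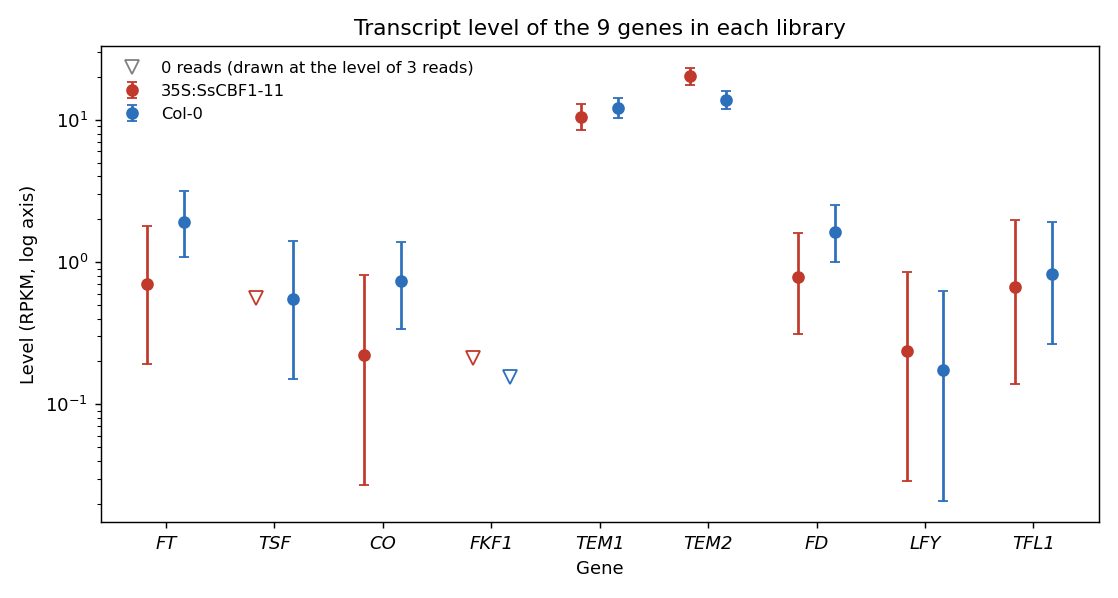
Level of each gene in RPKM on a log axis, in *35S:SsCBF1-11* (red) and Col-0 (blue), with exact 95% Poisson intervals of the count. Open triangles mark 0 reads and stand at the level that 3 reads would give. *TEM1* and *TEM2* lie above 10 RPKM in both libraries, and the other 7 genes lie under 2 RPKM in both.

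Per transcript length, *TEM2* and *TEM1* were the most abundant of the 9 genes in both libraries. *TEM2* stood at 20.2 RPKM (reads scaled to gene length and library size; exact Poisson interval 17.4 to 23.3) in *35S:SsCBF1-11* and at 13.8 (11.9 to 16.0) in Col-0, above 80.1% and 73.6% of the genes detected there. *TEM1* followed with 10.5 (8.54 to 12.9) in *35S:SsCBF1-11* and 12.1 (10.3 to 14.2) in Col-0. The intervals of these neighbours were apart in the transgenic library and overlapped in Col-0. Next in Col-0 came *FT* at 1.92 RPKM and *FD* at 1.63, then *TFL1*, *CO*, *TSF* and *LFY* between 0.819 and 0.174, and *FKF1* at 0, and from *FT* downwards the intervals of every pair of neighbours overlapped. In *35S:SsCBF1-11* the highest of these low genes was *FD* at 0.781 RPKM, followed by *FT* at 0.701. There the interval of *FD*, 0.314 to 1.61, lay above that of *FKF1*, 0 to 0.262, and the intervals of all neighbours in the order below *TEM1* overlapped.

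*FT* (AT1G65480; TAIR10.1 chromosome 1, 24331373 to 24333999, plus strand, up to 4 exons) encodes the mobile florigen, a small protein of the phosphatidylethanolamine-binding (PEBP) family. It had 4 reads in *35S:SsCBF1-11* and 15 in Col-0. The transgenic library thus held fewer *FT* reads than its share, with a ratio of reads per total of 0.365, but the exact 95% interval, 0.0881 to 1.14, reached past 1, and the binomial test gave an adjusted p of 0.286. At a total of 19 reads no split with fewer in the transgenic library would have passed the threshold. The PEBP gene nearest to it, *TSF* (AT4G20370; chromosome 4, 11000771 to 11003010, minus strand), which acts beside *FT* as a further florigen, had 0 reads in *35S:SsCBF1-11* and 4 in Col-0. That count of 0 allows up to 3 reads, or 0.563 RPKM, which is above the 0.549 RPKM measured in Col-0, so a difference in *TSF* was not detectable. Together the florigen genes had 4 reads in *35S:SsCBF1-11* and 19 in Col-0. The longest stretch that the annotated transcripts of *FT* and *TSF* share base for base is 29 bases, and that of *TEM1* and *TEM2* is 32. The sources used here do not say how reads that match several genes were treated.

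The region just upstream of *FT* is shown because CO acts on *FT* through short elements of the form TGTG, a gap of a few bases and ATG, and because CBF proteins bind the CRT core CCGAC. Within 1000 bases upstream of the annotated start of each of the 32835 genes matched to TAIR10.1, searched on both strands, *FT* had 1 match to TGTGNNATG, 1 to the form with a gap of 3 bases and 1 to CCGAC. The matches, in capitals, are printed 5′ to 3′ on the strand of the gene.
FT TGTGNNATG, chr1:24331280-24331308: aagacgacaaTGTGTGATGtacgtagaat
FT TGTG, gap of 3, ATG, chr1:24331339-24331368: agaaaaagatTGTGGTTATGatttcaccga
FT CCGAC, chr1:24331355-24331372: tatgatttcaCCGACccg
The matches end 75, 15 and 4 bases before the start, and the printed windows of the last pair overlap. Of the genes searched, 13.7% had the form with 2 bases between and 16.1% the form with 3, and among the 9 members *LFY* was the only other gene with either. CCGAC was found upstream of 38.1% of all genes and of 2 of the 9 members, *FT* and *TEM2*. These are matches of letters, given without any measure of binding.

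*CO* (AT5G15840; chromosome 5, 5170162 to 5173085, minus strand) encodes the B-box protein that activates *FT*. It had 2 reads in *35S:SsCBF1-11* and 9 in Col-0, a ratio of 0.304 (0.0320 to 1.47) with an adjusted p of 0.439 from the binomial test. The split leaned the same way as that of *FT*, and neither could be told from the library shares. In TAIR10.1 the gene AT5G15843 lies over 1967 bases of the locus on the opposite strand, and without a stated strand setting the reads of *CO* cannot be told from reads of an antisense transcript.

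*FKF1* (AT1G68050; chromosome 1, 25508639 to 25510907, plus strand), the blue-light receptor and F-box protein that removes the CDF repressors of *CO*, had 0 reads in *35S:SsCBF1-11* and 0 in Col-0. A count of 0 allows up to 3 reads per library (one-sided 95% limit), that is 0.213 RPKM in the transgenic library and 0.156 in Col-0, and the two-sided intervals used for the levels end at 0.262 and 0.191 RPKM. *MAP70-1*, which overlaps its 3′ end by 21 bases on the opposite strand, had 91 reads in *35S:SsCBF1-11* and 130 in Col-0. Of the 26700 nuclear protein-coding genes, 21.5% had 0 reads in both libraries. No ratio can be given for *FKF1*, and it is left out of every count of ratios.

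*FKF1* is known as a gene of the late day, and its upstream region is shown because it holds the evening element core AAATATCT, through which morning clock proteins keep such genes off early in the day, 4 times within 1000 bases. A core was present in that window in 14.7% of all genes, and 0.0335% had 4 or more. The core on the minus strand of the gene reads AGATATTT.
FKF1 core a, chr1:25508257-25508284: cgtttcacaaAAATATCTattatttgac
FKF1 core b, chr1:25508350-25508377: aaacaaaaacAAATATCTtccctcaaat
FKF1 core c, chr1:25508389-25508416: aaaaaaaaacAAATATCTttcacaaaat
FKF1 core d, chr1:25508443-25508470: tgagtaggctAGATATTTtctcggaata
Among the other members *FD* and *TFL1* had 1 core each, farther than 500 bases from their starts.

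**Figure D2:**
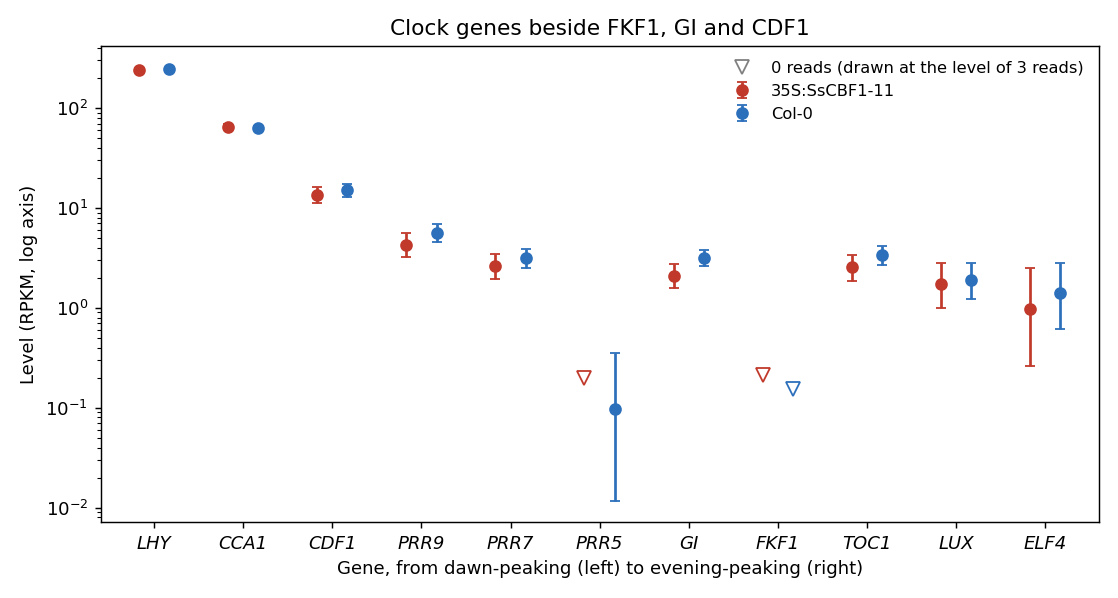
Level in RPKM on a log axis of clock genes and of *CDF1*, *GI* and *FKF1*, ordered from genes known to peak at dawn (left) to genes known to peak in the evening (right), in *35S:SsCBF1-11* (red) and Col-0 (blue) with exact 95% Poisson intervals. *LHY* and *CCA1* stand highest, *PRR5* and *FKF1* lowest, and the libraries follow the same profile.

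The sources used here do not give the hour of harvest, and the clock genes were therefore read beside *CO* and *FKF1*. The dawn genes stood highest: *LHY* was at 240.6 RPKM in *35S:SsCBF1-11* and 248 in Col-0, and *CCA1* at 64.6 and 63.0. Genes of the afternoon and evening were low, with *TOC1* at 2.55 RPKM in *35S:SsCBF1-11* and 3.36 in Col-0, *ELF4* at 0.969 and 1.42, and *PRR5* at 0 reads and 2 reads. *GI*, which works with *FKF1* late in the day, had 58 reads in *35S:SsCBF1-11* and 120 in Col-0 (ratio 0.661, 0.475 to 0.912, adjusted p = 0.0742 from the binomial test). *CDF1*, the repressor of *CO* and *FT* that FKF1 removes, had 113 and 172 reads, a ratio of 0.898 with an interval of 0.702 to 1.15. *ELF3* had 18 and 33 reads, a ratio of 0.746 with an interval of 0.395 to 1.36. Of the 9 clock genes 0 were called, and 7 of the 8 with at least 10 reads had ratios under 1. Among all genes with that many reads, 10809 of 18443 had a ratio under 1 with 0.5 reads added. The ratios of those 8 clock genes lay between 0.684 for *ELF4* and 1.02 for *CCA1*. The profile of high dawn genes and low evening genes was shared by both libraries, and its part in the low counts of *FKF1*, *CO* and *FT* was not tested.

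*TEM1* and *TEM2* are paralogs of the RAV family, with an AP2 and a B3 DNA-binding domain, and were the members measured best. *TEM2* (AT1G68840, named *RAV2* in RefSeq; chromosome 1, 25880155 to 25882222, plus strand) had 190 reads in *35S:SsCBF1-11* and 178 in Col-0. Although the transgenic library was the smaller, it held more reads of *TEM2*, and the ratio of 1.46 had an interval of 1.18 to 1.80 that left out 1. The adjusted p of 0.00448 (exact binomial test) missed the threshold of 0.001 and the ratio was under 2, so *TEM2* was not called. At 368 reads a call would have needed 219 of them in the transgenic library. *TEM1* (AT1G25560; chromosome 1, 8981556 to 8983314, minus strand) had 96 reads in *35S:SsCBF1-11* and 151 in Col-0, a ratio of 0.869 (0.666 to 1.13) with an adjusted p of 0.671. The ratio of *TEM1* was 0.596 times that of *TEM2*, with an exact conditional interval of 0.423 to 0.837 that left out 1. This interval covers counting error only and is not adjusted for the other pairs of members compared. It does not show that the paralogs differ between the genotypes. The sum of both was 286 reads in *35S:SsCBF1-11* and 329 in Col-0.

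The CRT core upstream of *TEM2* lies on the strand opposite to the gene and is shown as the only one of the RAV pair, *TEM1* having none within 1000 bases. In the printed strand, that of the gene, it reads GTCGG.
TEM2 CCGAC, chr1:25879586-25879610: ctataattacGTCGGaccaattgta
It lies 555 bases before the annotated start of *TEM2*. At 500 bases, where 22.1% of all genes had a core, *FT* alone of the 9 members had it.

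**Figure D3:**
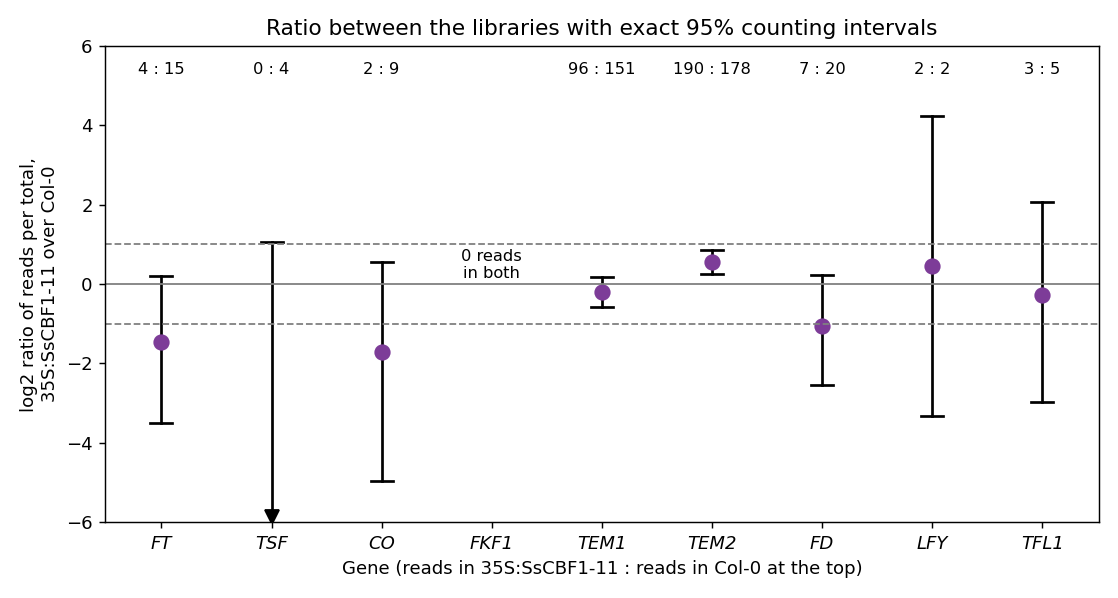
Ratio of reads per library total, *35S:SsCBF1-11* over Col-0, on a log2 axis with exact 95% counting intervals (black bars) and the reads of both libraries above each gene. Dashed lines mark 2-fold, the arrow on *TSF* an interval open downwards. Of the 8 genes with reads, the interval of *TEM2* alone leaves out a ratio of 1.

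In the shoot tip, *FD* (AT4G35900; chromosome 4, 17004382 to 17006462, plus strand) encodes the bZIP partner of FT. It had 7 reads in *35S:SsCBF1-11* and 20 in Col-0, with a ratio of 0.479 (0.171 to 1.18) and an adjusted p of 0.408 from the binomial test. Among 27 reads a call would have needed at most 1 in the transgenic library. *LFY* (AT5G61850; chromosome 5, 24844248 to 24846989, plus strand), the regulator that gives a meristem floral identity, had 2 reads in each library. *TFL1* (AT5G03840; chromosome 5, 1024500 to 1025872, minus strand), the PEBP protein that opposes FT at the shoot tip, had 3 reads in *35S:SsCBF1-11* and 5 in Col-0. The intervals of the last 2 genes ran from 0.0991 to 18.9 for *LFY* and from 0.127 to 4.22 for *TFL1*, and their ratio to each other, 1.60, from 0.0758 to 34.6. At this depth no difference in the identity genes was detectable, nor its absence.

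These genes are active in few cells of the aerial part, and in bulk RNA fewer cells of a type and less RNA per cell cannot be told apart. Of the 5 shoot meristem markers, *STM* (54 reads in *35S:SsCBF1-11*, 157 in Col-0) and *KNAT1* (41 and 250) were called lower and none was called higher. Over all tested genes 0.838% were called lower and 0.533% higher, which also holds as the background for the markers below. The summed level of the 5 meristem markers was 19.5 RPKM in *35S:SsCBF1-11* and 35.8 in Col-0. Among them the stem cell marker *CLV3* was at 0 in both and *WUS* at 0 reads and 1 read. *CLV1*, a receptor kinase gene of the meristem, had 234 reads in *35S:SsCBF1-11* and 253 in Col-0, a ratio of 1.26 (1.05 to 1.52) that was not called. Of the 4 floral organ markers *PI* (3 and 30 reads) was called lower, *AP3* had 3 and 24 reads, and the sum was 28.5 RPKM in *35S:SsCBF1-11* and 24.4 in Col-0 through *SHP1*. Of the 3 anther markers *GRP17* (0 reads in *35S:SsCBF1-11*, 123 in Col-0) and *ATA27* (0 and 103) were called lower, and the sum was 0 and 13.4 RPKM. The part of these differences in the counts of *FD*, *LFY* and *TFL1* was not tested. The companion cells in which *FT*, *TSF* and *CO* act had 3 markers, of which 0 were called, and their sum was 76.2 RPKM in *35S:SsCBF1-11* and 73.6 in Col-0. The ratio was 1.07 (0.948 to 1.21) for *SUC2*, 1.23 (1.07 to 1.40) for *AHA3* and 0.866 (0.752 to 0.995) for *SULTR2;1*, so that the last pair lay on opposite sides of 1. As labelled, the samples had leaf markers (*RBCS1A*, 112764 and 134636 reads) and almost none of the root, 0 and 2 reads over 3 markers.

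**Figure D4:**
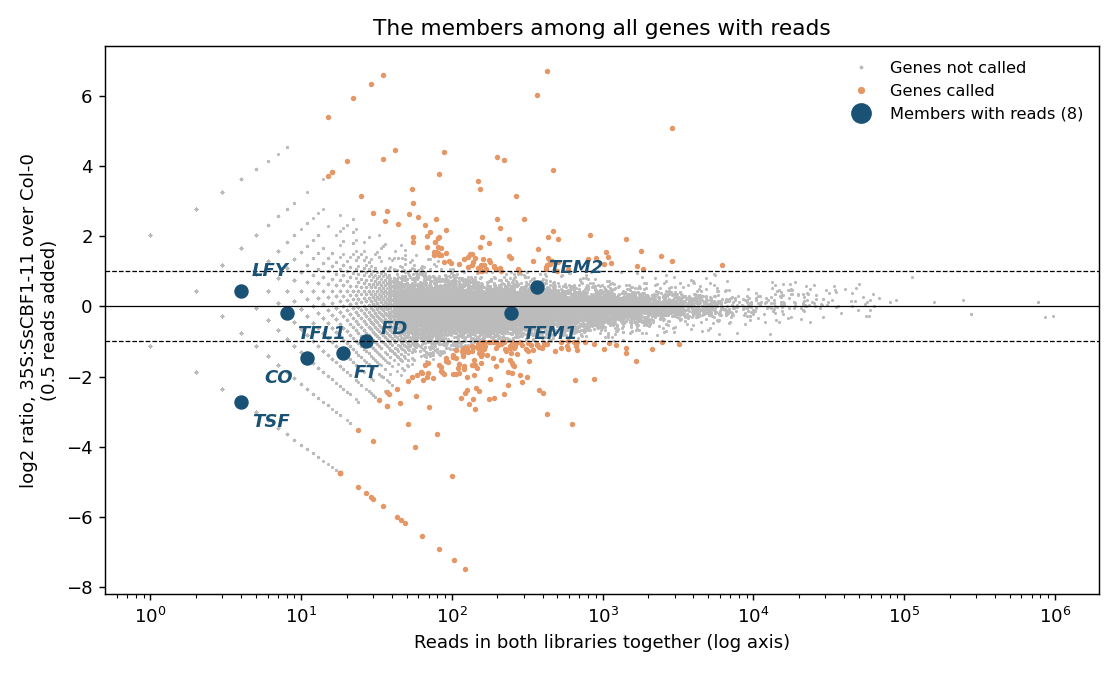
Log2 ratio, *35S:SsCBF1-11* over Col-0 with 0.5 reads added, against the reads of both libraries together (log axis) for the 22319 genes with reads. Called genes are orange, the 8 members with reads are dark blue, and dashed lines mark 2-fold. *FT*, *CO* and *FD* stand among many uncalled genes of the same few reads, and the fan of grey points narrows as reads increase.

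Without a test, 2 of the 5 members with at least 10 reads, *FT* and *CO*, had a ratio past 2-fold on the lower side with 0.5 reads added, none was past it on the higher side, and *FD* stood just inside at a log2 ratio of -0.999. Among all 18443 genes with that many reads, 5.14% were past 2-fold lower and 1.89% higher. The share depends on depth. Among genes with 10 to 49 reads, the class of *FT*, *CO* and *FD*, 15.3% were past 2-fold lower and 5.35% higher. The shares were 4.07% lower and 1.35% higher at 50 or more but under 200 reads, and 0.864% lower and 0.56% higher at 200 or more reads, the class of *TEM1* and *TEM2*. The 5 members had a median log2 ratio of -0.999, beside -0.07 over all 18443 genes. Those 5 are not all members, and 4 of them had a ratio under 1, as did 10809 of the 18443 genes.

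**Figure D5:**
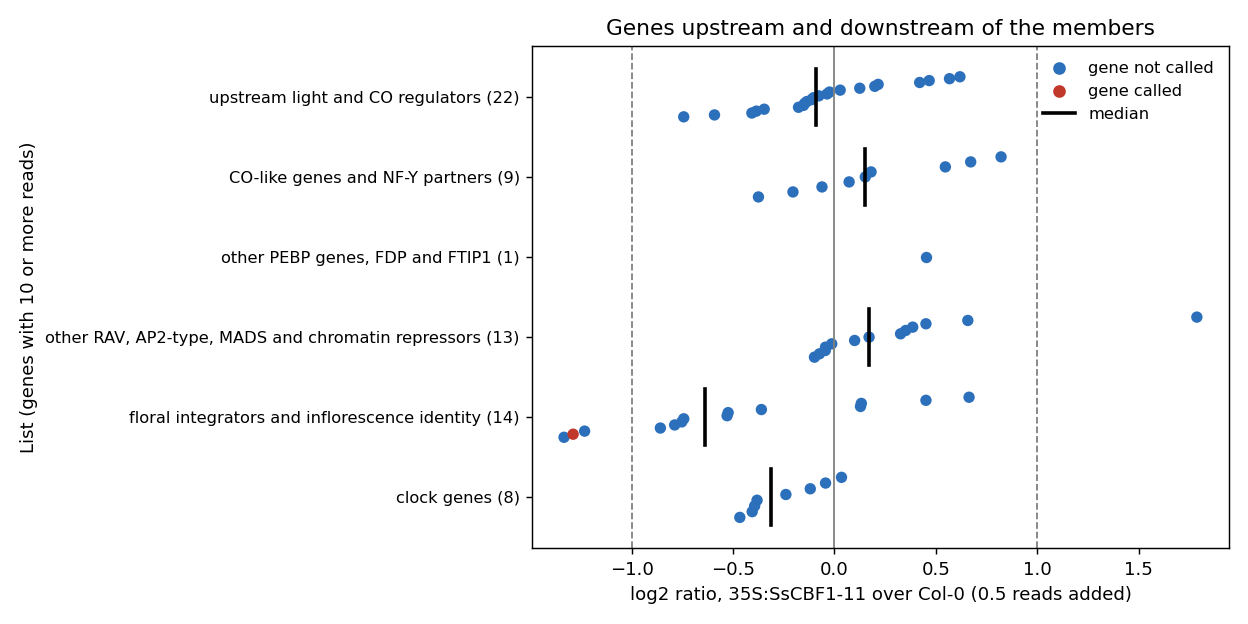
Log2 ratio, *35S:SsCBF1-11* over Col-0 with 0.5 reads added, of the genes with at least 10 reads in 6 lists of the flowering pathway (number of genes in brackets). Points are genes, red where called, black bars are list medians, and dashed lines mark 2-fold. *FUL* is the single red point, and *EDF3* the point beyond 2-fold on the right.

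Of the 22 regulators of light input and of *CO* transcription and stability, 0 were called in either direction, 10 had an unadjusted p under 0.05 (21.2% over all tested genes), and the median log2 ratio was -0.09. All 22 had at least 10 reads, whereas the 21.2% includes genes with fewer, which pass less easily. A share at the depth of this list was not computed, so these figures cannot be compared directly. The highest ratio was that of *FBH1*, a bHLH activator of *CO*, with 191 reads in *35S:SsCBF1-11* and 170 in Col-0 (1.54, 1.24 to 1.90, adjusted p = 8.77e-04 from the binomial test), under the fold threshold. The lowest was that of AT1G69570, a Dof-type zinc finger gene, with 29 and 67 reads (0.592, 0.369 to 0.928, adjusted p = 0.113). The blue-light receptor genes *CRY1* and *CRY2*, named after their values were seen, had 692 and 284 reads in *35S:SsCBF1-11* and 707 and 262 in Col-0, ratios of 1.34 (1.20 to 1.49) and 1.48 (1.25 to 1.76). Both passed the adjusted p and not the fold, and the share of all genes that pass the adjusted p alone was not computed. Of the 22 regulators, 8 had a log2 ratio above 0 and 14 below. The cryptochromes are known to stabilise CO in light.

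The 9 genes of the *CO*-like family and of the NF-Y partners of CO gave 0 calls, 4 unadjusted p-values under 0.05 (21.2% over all tested genes) and a median log2 ratio of 0.15. All 9 had at least 10 reads, so the same limit of depth holds for that share. *COL9*, which represses *CO*, had the highest ratio with 26 reads in *35S:SsCBF1-11* and 20 in Col-0 (1.78, 0.955 to 3.36). *NF-YB3*, a subunit of the complex through which CO acts on *FT*, had the lowest with 349 and 619 reads (0.771, 0.674 to 0.881, adjusted p = 0.00156). *COL5*, named after its values were seen, had 1382 and 1186 reads and a ratio of 1.59 with an interval of 1.47 to 1.72. Per length, *CO* stood at 0.223 RPKM in *35S:SsCBF1-11* and 0.734 in Col-0, and *COL9* at 1.99 and 1.12. *COL1*, the next protein-coding gene on the chromosome that does not overlap *CO*, stood at 55.5 and 52.8 in the same order. The intervals of *CO* and *COL9* overlapped in Col-0.

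The remaining PEBP genes were nearly silent. *BFT* had 0 reads in *35S:SsCBF1-11* and 1 in Col-0, *ATC* had 0 in both, and *MFT* had 4 and 5. *FDP*, the paralog of *FD*, had 0 and 4 reads. *FTIP1*, which helps FT out of the companion cells, had 25 reads in each library, a ratio of 1.37 with an interval of 0.754 to 2.48. None of these 5 genes was called.

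Of 13 other repressors that act on *FT* or beside the TEM proteins, 0 were called, 1 was past 2-fold on the higher side, and the median log2 ratio was 0.17. Past 2-fold higher were 1.89% of all genes with at least 10 reads and 5.35% of those with 10 to 49. The gene past 2-fold was *EDF3*, a RAV gene of the same subfamily as *TEM1* and *TEM2*, with 26 reads in *35S:SsCBF1-11* and 10 in Col-0 (3.56, 1.66 to 8.26, adjusted p = 0.00442 from the binomial test). *RAV1*, the last of this subfamily and named after its values were seen, had 194 and 203 reads (1.31, 1.07 to 1.60). *TEM2*, *EDF3* and *RAV1* had intervals above 1 and *TEM1* did not, and none of the 4 passed the threshold. Among the 13 repressors, 3 had an unadjusted p under 0.05 in the binomial test, where 21.2% of all tested genes did. All 13 had at least 10 reads, so the limit of depth given above holds here too. The lowest ratio was that of *TOE3*, an AP2-type gene, with 34 and 50 reads (0.930, 0.583 to 1.47), and *SVP*, which represses *FT* in the leaf, had a ratio of 1.07 (0.947 to 1.21). The list left out *MAF5*, a negative regulator of flowering time, so its counts do not cover all repressors of flowering. The paper reports that omitted gene as up-regulated in this line and proposes that it very likely adds to the late flowering.

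The 18 floral integrators and inflorescence identity genes gave 1 call lower and 0 higher, where 0.838% and 0.533% of all tested genes were called. Over the 14 with at least 10 reads the median log2 ratio was -0.64. The called gene was *FUL*, a MADS-box gene activated by FT and FD in the meristem, at 3.91 RPKM in *35S:SsCBF1-11* and 9.65 in Col-0. *AP1*, a direct target of FT and FD and of LFY, had 9 reads in *35S:SsCBF1-11* and 30 in Col-0 (0.410, 0.171 to 0.886, adjusted p = 0.101). *SOC1*, a MADS-box integrator, had 190 and 374 reads and a ratio of 0.695 (0.580 to 0.829), and *PNY*, a homeobox gene of the inflorescence meristem named after its values were seen, had 100 and 231 reads and a ratio of 0.592 (0.463 to 0.752). Both passed the adjusted p and not the fold. *SEP3*, a MADS-box gene of the young flower named after its values were seen, had 4 and 15 reads (0.365, 0.0881 to 1.14), the lowest ratio among those 14. The highest ratio was that of *SPL4* with 36 and 31 reads (1.59, 0.955 to 2.65). *CAL* and *UFO*, genes of the young flower, had 0 reads in *35S:SsCBF1-11* and 2 each in Col-0, and *PUCHI* had 0 in both.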

How the data were processed

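RNA-seq was done on 1 pooled library per genotype. The authors deposited a table with a read count per gene, not normalized, and the RPKM made from it. The deposited RPKM equalled reads over length and library total in 100% of genes (relative tolerance 1e-06). The submitters' processing notes name TAIR10 and CASAVA 1.7, and the sources used here do not give the aligner, the counter or a strand option. The authors' fold changes, q-values and enrichment sheets were not used.

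Each gene's counts were set against the library share in an exact binomial test (two-sided), adjusted by Benjamini-Hochberg over all genes with reads. A call needed both an adjusted p below 0.001 and a ratio above 2 with 0.5 reads added. Ratio intervals are exact Clopper-Pearson and RPKM intervals exact Poisson, at 95%, and cover counting error only. The test compares 2 libraries, not the genotypes. The totals of 6669454 and 9120358 reads set the precision. Likeness of pattern between genes cannot be measured over 2 libraries. In each pathway list the genes with the highest and the lowest ratio among uncalled genes with at least 20 reads, the called genes and *GI*, *CDF1*, *SOC1*, *AP1* and *SVP* were named. Other list genes named in the text fall outside this rule, and only some of them are marked where they appear. The members and lists were chosen with earlier results of these data known, and the evening element and CO-responsive motifs after the data were seen. Loci were matched to TAIR10.1 (RefSeq), 32835 of 33602. A planned comparison of protein sequences was not run. Alternatives were other scalings (edgeR 4.0.16, DESeq2 1.42.0), minimum reads, pseudocounts, thresholds and assumed variation between libraries. Scripts ran in Python 3.11.15 with scipy 1.17.1 and in R 4.3.3, and were tested on simulated data.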

Additional observations from a re-analysis of the deposited data

How the results depend on the processing

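No member was called under any alternative, and all 93 member values kept their direction. The direction was largely fixed by the kind of alternative. Changes of fold, adjusted p, minimum reads or assumed variation left the log2 ratios untouched. Other scalings moved all log2 ratios alike, by about 0.07 at most. Parts of the call rule were crossed: the adjusted p of *TEM2*, 0.00448, was 9.51e-04 with TMM and 7.73e-04 with DESeq2 size factors, under 0.001, with a ratio still under 2. The log2 ratio ran from -1.37 to -1.23 for *FT*, -1.51 to -1.29 for *CO*, -1.04 to -0.93 for *FD*, -0.24 to -0.13 for *TEM1* and 0.51 to 0.62 for *TEM2*, whose adjusted p ran from 7.73e-04 to 1. The 2 members past 2-fold lower, *FT* and *CO*, became 0 with 5 reads added and 0 with a minimum of 50 reads. They became 3 without the 10 most abundant genes in the totals and 3 with nuclear protein-coding genes only, where *FD* passed 2-fold at -1.02 and -1.04, and 3 with no minimum, through *TSF*. Over all genes, the 119 called higher and 187 called lower became 232 and 409 at a fold of 1.5, and 189 and 413 at an adjusted p of 0.05. With an assumed coefficient of variation between libraries, each a pool of 20 plants, in edgeR they became 64 and 82 at 0.1, 18 and 21 at 0.2, and 2 and 0 at 0.4. The share of higher calls was 38.9%, against 48.2% with TMM and 49.1% with DESeq2 size factors (136 higher, 141 lower), and both scalings moved all log2 ratios by 0.07. No paired analysis was possible because each genotype has 1 library, and for the same reason no library could be left out. Under the main rule *TSF*, *CO*, *FKF1*, *LFY* and *TFL1* could not be called in any split of their reads, and *FT* could not be called lower. This limit was not worked out for the alternatives.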

Other observations

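Beside *CO*, the long non-coding RNA gene AT5G15845, which overlaps it by 5 bases on the opposite strand, had 338 reads in *35S:SsCBF1-11* and 521 in Col-0, where *CO* had 2 and 9. The protein-coding gene AT5G15843, opposite to most of *CO*, was not among the genes of the table, so no reads can be given for it. Beside *FT*, the nearest protein-coding gene on its left, *FAS1*, had 27 reads in *35S:SsCBF1-11* and 34 in Col-0.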
